A study of Mus musculus with 12 samples.

Results

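Tendon lineage genes were followed through 12 RNA-seq libraries of satellite cells, the stem cells of skeletal muscle, taken from mouse hindlimb muscle 3 days after injury. The set holds 7 of the 22310 gene symbols counted. They are the lineage transcription factors Scx and Mkx, the tendon products Tnmd, Comp and Thbs4, and the secreted or matrix-associated Angptl7 and Itgbl1. They were chosen by name, after most of them had been seen among the largest differences between old knockout and old wild-type libraries. That comparison is therefore described here by values without a p-value, and so are the comparisons of age, which use the same old libraries. All 7 passed the filter on low counts, which left 13540 genes for testing.

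The 4 groups held 3 libraries each: Hoxa9 knock-out mice of 22 to 28 months (old knockout), Hoxa9 knock-out mice of 3 to 4 months (young knockout), wild-type mice of 22 to 28 months (old wild type) and wild-type mice of 3 to 4 months (young wild type). All were of the C57BL/6 strain, and the injury was made with barium chloride, 50 µl of a 1.2% solution spread over about 20 sites. The labels do not say which part of Hoxa9 was deleted, in which cells, or how many animals gave each library. The p-values thus reflect how far these libraries scatter, which may be technical. Hoxa9, a homeobox transcription factor, stood at 4.55 to 7.21 CPM (reads per gene scaled by library size to a common total) in the knockout libraries and at 7.95 to 22.5 CPM in wild type, so its reads check the labels only in part.

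Tendon joins muscle to bone through parallel collagen fibrils that are made and maintained by tenocytes. Scleraxis (Scx), a basic helix-loop-helix factor, marks tendon progenitors and tenocytes, and Mohawk (Mkx), a homeobox factor, is needed in mouse tendon for normal collagen fibril growth. Tenomodulin (Tnmd), a membrane glycoprotein of mature tenocytes, is a known target of Scx. Cartilage oligomeric matrix protein (Comp) and thrombospondin 4 (Thbs4) belong to the same thrombospondin subgroup and are laid down in the matrix of tendon and of the muscle-tendon junction. Angptl7 is a secreted angiopoietin-like protein, and Itgbl1 encodes a secreted protein with repeats like those of integrin beta chains. Tenocytes are not satellite cells, and in RNA from a whole fraction fewer cells of a type and less RNA per cell cannot be told apart.

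Of the 7 genes, Scx, Mkx and Comp are left out here. The other 4, like Comp, had their highest level in old knockout replicate 3. For these 4, promoter sequences of RefSeq's table for GRCm38.p6 are shown. Each runs 5′ to 3′ on the gene's own strand from 250 bases before the start of transcription to 50 bases after it. Capitals mark every CANNTG, the E-box that basic helix-loop-helix factors such as Scx bind. The motif reads the same on both strands.
Tnmd, chrX:133850758-133851057, plus strand: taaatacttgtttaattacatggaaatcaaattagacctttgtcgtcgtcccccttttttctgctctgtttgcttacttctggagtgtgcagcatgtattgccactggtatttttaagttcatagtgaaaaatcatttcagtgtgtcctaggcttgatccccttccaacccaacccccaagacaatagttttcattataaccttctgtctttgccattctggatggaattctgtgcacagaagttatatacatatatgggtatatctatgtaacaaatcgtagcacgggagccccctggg
Thbs4, chr13:92794769-92795068, minus strand: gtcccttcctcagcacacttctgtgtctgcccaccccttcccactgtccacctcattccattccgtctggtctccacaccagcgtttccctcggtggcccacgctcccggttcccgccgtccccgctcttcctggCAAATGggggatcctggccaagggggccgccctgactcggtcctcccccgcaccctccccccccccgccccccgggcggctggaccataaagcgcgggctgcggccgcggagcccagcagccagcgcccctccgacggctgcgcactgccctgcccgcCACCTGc
Angptl7, chr4:148500413-148500712, minus strand: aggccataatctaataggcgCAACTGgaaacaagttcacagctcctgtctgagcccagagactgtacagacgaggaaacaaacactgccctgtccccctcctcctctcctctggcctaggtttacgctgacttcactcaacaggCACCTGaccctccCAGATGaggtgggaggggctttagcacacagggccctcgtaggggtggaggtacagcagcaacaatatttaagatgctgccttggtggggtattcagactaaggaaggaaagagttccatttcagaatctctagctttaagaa
Itgbl1, chr14:123659890-123660189, plus strand: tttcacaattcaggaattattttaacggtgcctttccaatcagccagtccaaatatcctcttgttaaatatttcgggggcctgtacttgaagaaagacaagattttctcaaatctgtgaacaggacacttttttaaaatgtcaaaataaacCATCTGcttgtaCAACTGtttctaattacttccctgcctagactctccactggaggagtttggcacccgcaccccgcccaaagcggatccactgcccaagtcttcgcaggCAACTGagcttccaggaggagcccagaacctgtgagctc
The Thbs4 window held 2 such motifs, the Angptl7 and Itgbl1 windows 3 each, and the Tnmd window 0. Of 32851 mouse promoters of this length, 72.3% held at least 1. A match is only a match of letters, and the letters' absence from the Tnmd window says nothing of sites elsewhere.

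Libraries held 4193433 to 20337015 reads in genes, and 32.2% to 70.8% of uniquely aligned reads lay outside genes. The labelled cell type was checked with 11 satellite cell markers, among them Pax7 and Myod1. Their summed level was 5516 to 6332 CPM in old knockout, 5066 to 7987 CPM in young knockout, 5467 to 5791 CPM in old wild type and 6114 to 6863 CPM in young wild type, and none was at 0. Itga7, Cdh15, Vcam1 and Sdc4 had the highest means in every group, so the sums weigh them most. Pax7 stood at 214 to 243 CPM in young knockout and at 333 to 396 CPM in young wild type. Of the 11 in young mice, 1 was called higher and 3 lower in knockout, where 10.9% and 10% of all genes were. Y-linked Ddx3y stood at 125 and 150 CPM in old knockout replicates 2 and 3 and at 0 to 5.11 CPM in the other 10 libraries. The level of a gene relative to its mean rose with its GC content in all 6 wild-type libraries, by 0.15 to 0.36 on the log2 scale per 10 percentage points, and fell in all 6 knockout libraries, with slopes of -0.38 to -0.09.

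Scx was detected in every library. It stood at 16.7, 28.0 and 24.7 CPM in old knockout replicates 1 to 3, at 17.8, 14.2 and 8.94 CPM in young knockout, at 25.6, 16.7 and 28.4 CPM in old wild type, and at 25.6, 25.3 and 24.4 CPM in young wild type. The young knockout libraries lay below all 3 young wild-type libraries, while old knockout and old wild type overlapped. The highest library held 3.18 times the lowest.

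Mkx was low, with 15 to 62 reads per library. It stood at 2.85, 4.15 and 13.9 CPM in old knockout, at 3.48, 5.77 and 15.1 CPM in young knockout, at 1.97, 4.16 and 2.25 CPM in old wild type, and at 2.13, 2.31 and 2.08 CPM in young wild type. Replicate 3 of each knockout group stood apart at the top, and the other knockout libraries were within or just above the wild-type range. In the young groups the knockout libraries lay above wild type without overlap.

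Tnmd differed far more between libraries than either factor. It stood at 3.00, 15.7 and 45.9 CPM in old knockout, at 7.46, 30.9 and 15.1 CPM in young knockout, at 0.246, 1.19 and 0.408 CPM in old wild type, and at 5.62, 5.24 and 1.76 CPM in young wild type. Old wild type rested on 4, 12 and 6 reads. Every old knockout library lay above every old wild-type library, every young knockout library lay above every young wild-type library, and the range over all libraries was 187-fold.

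Comp stood at 6.91, 69.5 and 81.3 CPM in old knockout, at 11.02, 32.2 and 24.8 CPM in young knockout, at 0.799, 2.38 and 1.29 CPM in old wild type, and at 7.08, 4.16 and 5.05 CPM in young wild type. Old knockout replicate 1 lay within the young wild-type range, while replicates 2 and 3 were the highest of all 12 libraries. Thbs4 was the most abundant of the products, at 39.3, 126 and 305 CPM in old knockout, 112, 138 and 117 CPM in young knockout, at 4.92, 7.13 and 10.2 CPM in old wild type, and 112, 33.5 and 35.3 CPM in young wild type. Young wild-type replicate 1 reached the level of young knockout replicate 1 (111.5 CPM against 111.6 CPM), so the gap between those groups rests on the other 2 wild-type libraries.

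Angptl7 separated the genotypes at both ages. It stood at 13.8, 62.6 and 279 CPM in old knockout, at 15.1, 44.7 and 45.9 CPM in young knockout, at 0.799, 3.46 and 2.86 CPM in old wild type, and at 1.99, 0.617 and 2.16 CPM in young wild type. All 6 knockout libraries lay above all 6 wild-type libraries. Itgbl1 stood at 6.46, 12.8 and 38.0 CPM in old knockout, at 6.21, 27.2 and 18.4 CPM in young knockout, at 0.738, 1.49 and 0.885 CPM in old wild type, and at 6.35, 5.40 and 4.25 CPM in young wild type. Young knockout replicate 1 lay just under young wild-type replicate 1, so the young groups overlapped for Itgbl1.

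**Figure D1:**
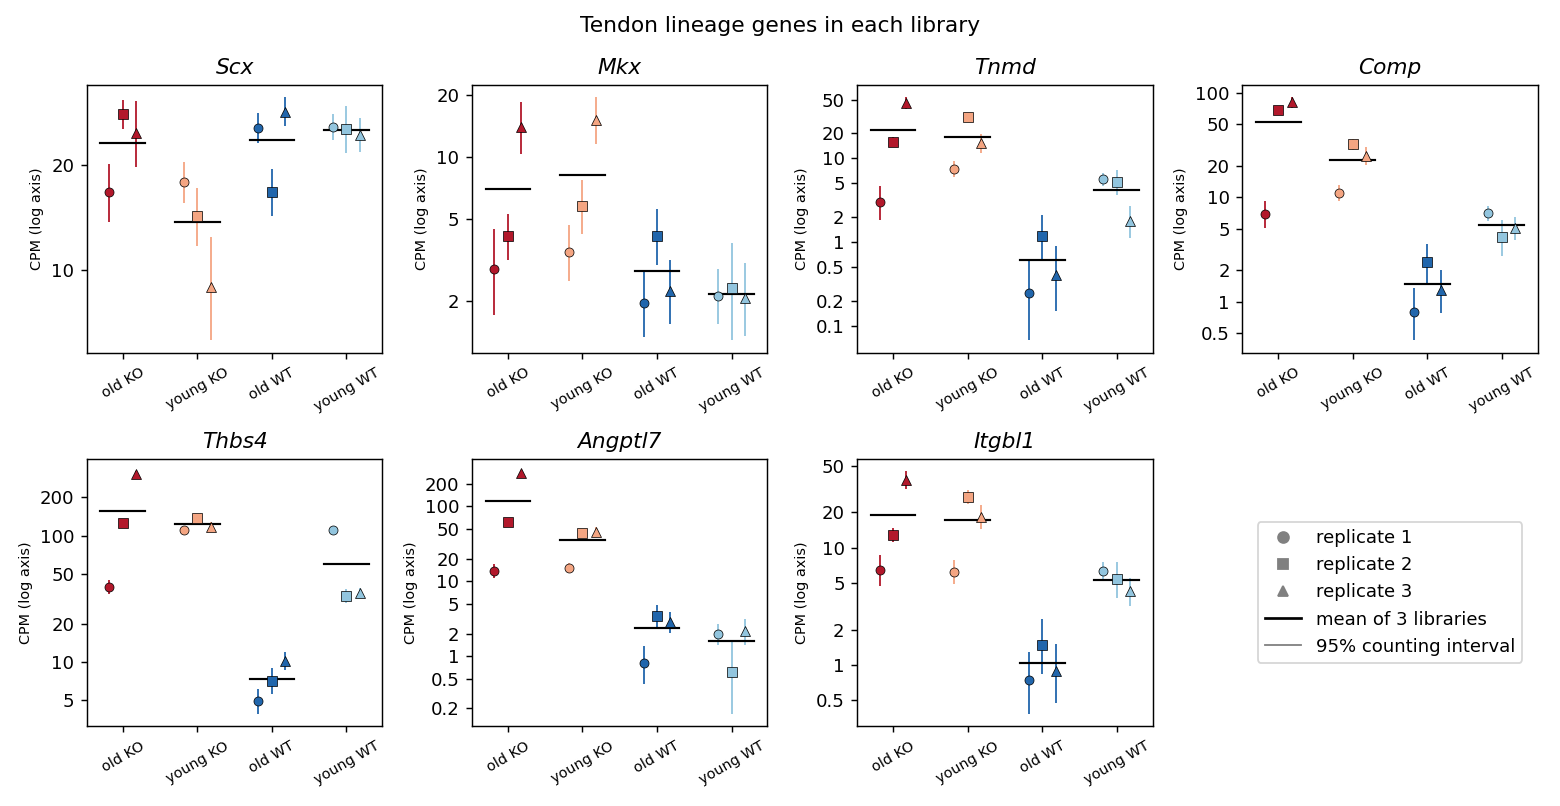
CPM of each gene in each library on a log axis, with 95% counting intervals (exact Poisson) and a bar for the mean of 3 libraries. Scx stays between 8.94 and 28.4 CPM in all libraries, while Tnmd, Comp, Thbs4 and Itgbl1 are lowest in old wild type and all 5 genes other than the factors peak in old knockout replicate 3.

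Levels of different genes were compared per kilobase of exon, using exon lengths of GENCODE M21. In young wild type Thbs4 led with 18.3 ± 13.5 CPM per kb, followed by Scx at 12.5 ± 0.308, Tnmd at 3.11 ± 1.57, Comp at 1.83 ± 0.504, Itgbl1 at 1.26 ± 0.249, Angptl7 at 0.737 ± 0.393 and Mkx at 0.531 ± 0.0294 (SD, n = 3). Thbs4 and Scx overlapped in range, as did Tnmd and Comp, Comp and Itgbl1, and Angptl7 and Mkx, whereas every Scx library lay above every Tnmd library and Itgbl1 lay just above Angptl7. In old wild type Scx stood first, at 11.7 ± 3.04 CPM per kb, and above Thbs4 at 2.26 ± 0.808 in every library. In old knockout Angptl7 (54.9 ± 65.4), Thbs4 (47.7 ± 41.2), Comp (17.7 ± 13.5), Tnmd (15.9 ± 16.3) and Scx (11.5 ± 2.89) overlapped in range. In young knockout the order was Thbs4 (37.2 ± 4.25), Angptl7 (16.3 ± 8.09), Tnmd (13.2 ± 8.84), Comp (7.64 ± 3.62) and Scx (6.81 ± 2.22), with Thbs4 above the others in every library. The length used for Scx includes its intron, so its level per kilobase is a low estimate.

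The lineage factors and the products did not follow the same order of libraries. Summed Tnmd, Comp and Thbs4 reads per summed Scx and Mkx read were 2.52, 6.57 and 11.2 in old knockout, 6.11, 10.1 and 6.54 in young knockout, 0.217, 0.512 and 0.388 in old wild type, and 4.47, 1.55 and 1.59 in young wild type. Thbs4 gave most of the product reads in every library. Scx gave most of the factor reads except in young knockout replicate 3, with 61 Mkx and 36 Scx reads. The ratio of products to factors is taken within a library and does not depend on scaling by library size. Only its differences between libraries carry information, since the genes differ in length. A trend with GC content does not cancel in it where the genes differ in that content. GC content was 61.3% for Scx, 43.2% for Mkx, 43% for Tnmd, 59.9% for Comp and 53.9% for Thbs4. The trend had opposite signs in knockout and wild-type libraries, and its part in the ratio was not tested. As a log2 ratio it averaged 2.51 ± 1.09 in old knockout, 2.88 ± 0.39 in young knockout, -1.51 ± 0.63 in old wild type and 1.15 ± 0.87 in young wild type (SD, n = 3). Old wild type lay below the other 3 groups in every library, and both young groups stayed apart.

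The library pairs show where the factors and products part. Old knockout replicate 2 and old wild-type replicate 3 had nearly the same Scx level, 28.0 and 28.4 CPM, and summed product levels of 211 and 11.9 CPM. Young knockout replicate 3 had the lowest Scx of all libraries, 8.94 CPM, beside products at 157 CPM. For Mkx, old knockout replicate 2 and old wild-type replicate 2 matched at 4.15 and 4.16 CPM, with products at 211 and 10.7 CPM. These pairs were chosen after their values were seen.

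Taken gene by gene, Tnmd reads per 100 Scx reads were 18.02, 56.0 and 186 in old knockout, 41.9, 217 and 169 in young knockout, 0.962, 7.10 and 1.43 in old wild type, and 21.9, 20.7 and 7.21 in young wild type. Comp reads per 100 Scx reads were 41.4 to 329 in old knockout, 61.9 to 278 in young knockout, 3.13 to 14.2 in old wild type and 16.5 to 27.6 in young wild type. Against Scx, then, Tnmd and Comp were higher in every knockout library than in every wild-type library of the same age. Thbs4 was set against Mkx, so both genes of that ratio differ from those above. Thbs4 reads per Mkx read were 13.8, 30.4 and 21.9 in old knockout, 32.1, 23.9 and 7.75 in young knockout, 2.50, 1.71 and 4.55 in old wild type, and 52.3, 14.5 and 16.9 in young wild type. The young groups overlapped there, and old wild type again lay below all others. The difference between knockout and wild type in the mean log2 ratio of products to factors was 4.02 in old mice and 1.73 in young mice, and with Mkx as the only factor 3.12 and -0.23.

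**Figure D2:**
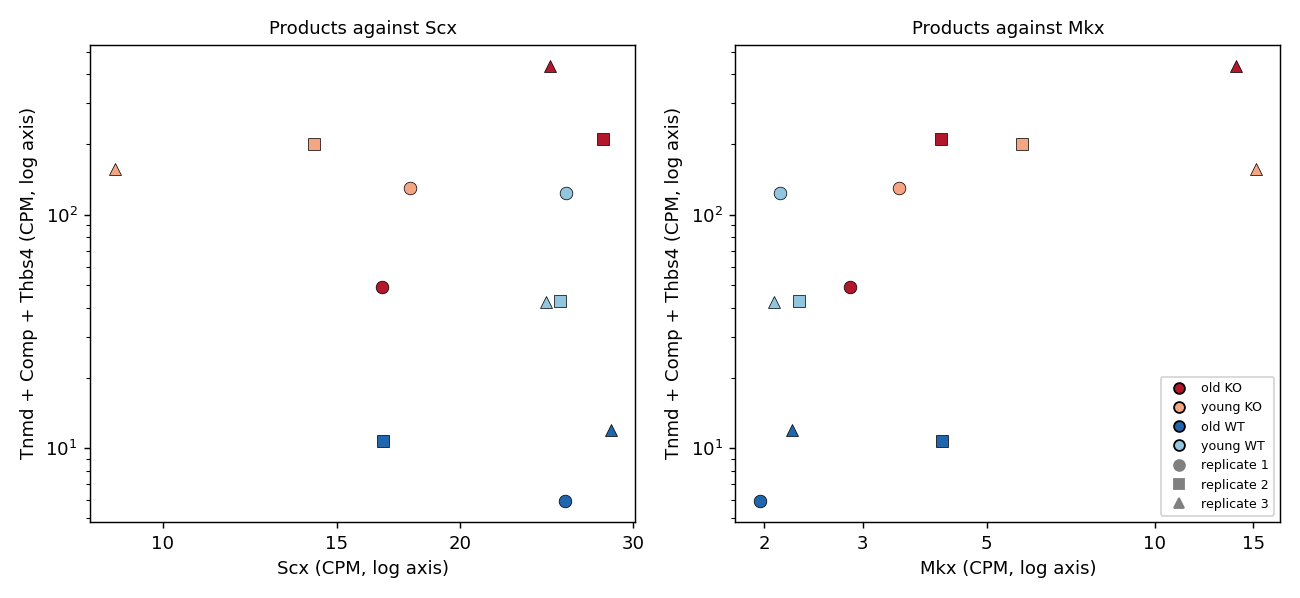
Summed Tnmd, Comp and Thbs4 CPM against Scx CPM (left) and Mkx CPM (right), both axes logarithmic, 1 point per library. Libraries near 28 CPM of Scx lie at 211 CPM of products in old knockout and at 11.9 CPM in old wild type, while the 2 libraries with Mkx above 10 CPM are both knockout.

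Both Scx and Angptl7 lie inside another gene on the opposite strand, which bears on how their reads are read. In GENCODE M21 Scx lies within Bop1, a ribosome biogenesis factor gene, and Angptl7 within Mtor, the gene of a growth-regulating kinase. In neither case do the exons share a base. The sources used here do not give whether counting used strand, and total RNA carries intron reads, so reads of the host gene could be counted for the nested gene. Scx reads per 100 Bop1 reads were 18.05, 24.4 and 27.4 in old knockout, 22.5, 17.4 and 12.5 in young knockout, 22.5, 14.1 and 22.2 in old wild type, and 27.7, 26.1 and 24.0 in young wild type. That ratio spans 2.21-fold over the libraries. Bop1 itself averaged 77.5 CPM in young knockout and 97.1 CPM in young wild type, with no overlap between those groups, and did not pass the test (log2 fold change -0.32 ± 0.12 (SE), adjusted p = 0.0766 in edgeR's quasi-likelihood test). Angptl7 reads per 100 Mtor reads, by contrast, were 12.2 to 230 in old knockout, 11.97 to 42.3 in young knockout, 0.698 to 2.90 in old wild type and 0.725 to 2.11 in young wild type, while Mtor stayed between 85.1 and 128 CPM. How many reads of either nested gene come from its host was not tested.

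**Figure D3:**
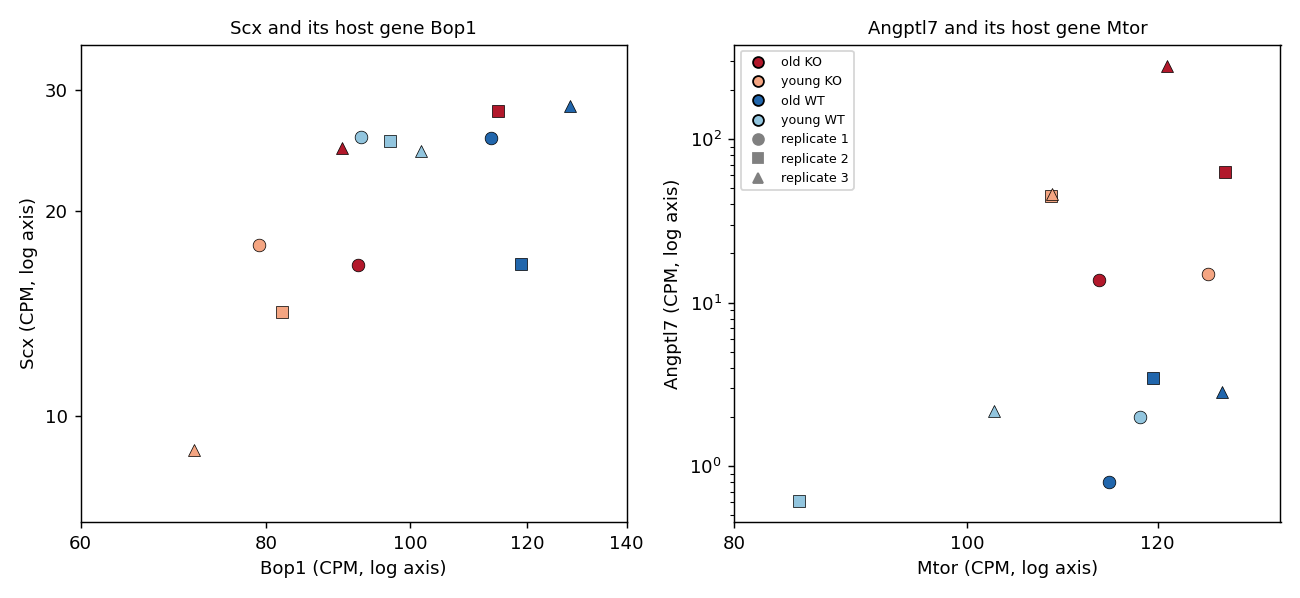
Scx CPM against Bop1 CPM (left) and Angptl7 CPM against Mtor CPM (right), log axes, 1 point per library. The library lowest in Scx, young knockout replicate 3, is also lowest in Bop1 (71.5 CPM), and Angptl7 separates knockout from wild type at Mtor levels between 85.1 and 128 CPM.

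The young libraries did not enter the choice of the genes, so knockout was tested against wild type there, in a fit over all genes. That fit estimates the spread from all 12 libraries. The old libraries, which did enter the choice, thus bear on whether a young difference passes. Angptl7 rose and Scx fell in young knockout, and the other 5 did not pass an adjusted p of 0.05. Angptl7 averaged 35.2 ± 17.5 CPM in young knockout and 1.59 ± 0.847 CPM in young wild type (SD, n = 3), a log2 fold change of 4.31 ± 1.12 (SE, adjusted p = 0.0243 in edgeR's quasi-likelihood test). Scx averaged 13.7 ± 4.46 CPM in young knockout and 25.1 ± 0.619 CPM in young wild type, a log2 fold change of -0.85 ± 0.26 (adjusted p = 0.0333). Of all 13540 genes, 10.9% were called higher and 10% lower in the same test, so 1 of 7 in each direction is close to the background.

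The 5 genes that did not pass all had positive values. The log2 fold change was 1.84 ± 0.63 for Mkx (adjusted p = 0.0573 in edgeR's test), 2.08 ± 0.90 for Tnmd (0.127), 2.01 ± 0.78 for Comp (0.0948), 1.01 ± 0.68 for Thbs4 (0.319) and 1.67 ± 0.65 for Itgbl1 (0.0904). Mkx, Tnmd, Comp, Thbs4 and Angptl7 were higher in young knockout with no overlap between the groups, 5 of 7, against 16% of all tested genes. For Thbs4 this rests on 111.6 CPM in young knockout against 111.5 CPM in young wild type, a gap within counting error. The Angptl7 call held in every setting that kept all 6 young libraries except the one with no filter on low counts (adjusted p = 0.0518 in edgeR's test). It was lost on leaving out any one young library other than young knockout replicate 1, with adjusted p-values in edgeR's test from 0.0272 without that library up to 0.0807. The Scx call was likewise lost without any one young library other than young knockout replicate 1 (0.0188 without it, up to 0.113). It was also lost with offsets for GC content (log2 fold change -0.45, adjusted p = 0.313 in edgeR's test). The same offsets gave 1.47 for Mkx, 1.62 for Tnmd, 2.38 for Comp, 1.20 for Thbs4, 4.31 for Angptl7 and 1.11 for Itgbl1. Scx has 61.3% GC, more than 97.6% of tested genes, beside 58.2% for Bop1.

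In old mice the products stood far higher in knockout. Fold changes in CPM of old knockout over old wild type were 36.2 for Tnmd, 36.5 for Comp, 20.9 for Thbs4, 50.7 for Angptl7 and 18.1 for Itgbl1. On the log2 scale these are 5.18 ± 1.11, 5.19 ± 0.90, 4.39 ± 0.79, 5.66 ± 1.12 and 4.18 ± 0.76 (SE), and they describe the contrast the genes were taken from. Scx did not share the rise, with a log2 fold change of -0.03 ± 0.25. Mkx had a smaller positive value, 1.25 ± 0.63, and both factors had overlapping groups. Old knockout was uneven, with replicate 1 the lowest and replicate 3 the highest of the 3 for all 5 of the products and secreted genes. Replicate 3 also had the most reads outside genes of all libraries, 70.8%, and the lowest scaling factor, 0.773. Without it the log2 fold changes were 4.09 for Tnmd, 4.785 for Comp, 3.51 for Thbs4, 4.09 for Angptl7, 3.29 for Itgbl1 and 0.39 for Mkx. With replicate 1 as the only old knockout library, which leaves out both libraries with many Y-linked reads, the values were 2.40 for Tnmd, 2.27 for Comp, 2.41 for Thbs4, 2.59 for Angptl7, 2.68 for Itgbl1, 0.06 for Mkx and -0.50 for Scx. Sex was not given in the labels, and its part in these values was not tested.

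Age was compared within each genotype, and whether its effect differed between genotypes was not tested for these 7 genes. Old minus young log2 values in knockout were 0.22 ± 0.85 for Tnmd, 1.22 ± 0.73 for Comp, 0.34 ± 0.67 for Thbs4, 1.75 ± 0.91 for Angptl7 and 0.11 ± 0.63 for Itgbl1 (SE), with all groups overlapping. With replicate 1 as the only old knockout library each of these 5 turned negative, at -2.61 for Tnmd, -1.75 for Comp, -1.69 for Thbs4, -1.38 for Angptl7 and -1.45 for Itgbl1. In wild type they were -2.88 ± 1.12 for Tnmd, -1.96 ± 0.89 for Comp, -3.03 ± 0.75 for Thbs4 and -2.40 ± 0.75 for Itgbl1, each with every old library below every young one, 4 of 7, against 13.8% of all tested genes. Angptl7 stood apart from these 4, at 0.39 ± 1.24 in wild type with overlapping groups. Scx was at 0.73 ± 0.26 in knockout and -0.09 ± 0.25 in wild type, and Mkx at -0.25 ± 0.62 in knockout and 0.34 ± 0.63 in wild type. Knockout and wild type in old mice share the old libraries with these age comparisons, so a low level in old wild type enters both. The genes were chosen with those old libraries seen. The 4 of 7 beside the share of all genes is therefore a description and no independent evidence. The mix of products also varied between groups. Angptl7 reads per 100 Thbs4 reads were 35.1 to 91.4 in old knockout, 13.5 to 39.1 in young knockout, 16.3 to 48.6 in old wild type and 1.78 to 6.14 in young wild type.

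**Figure D4:**
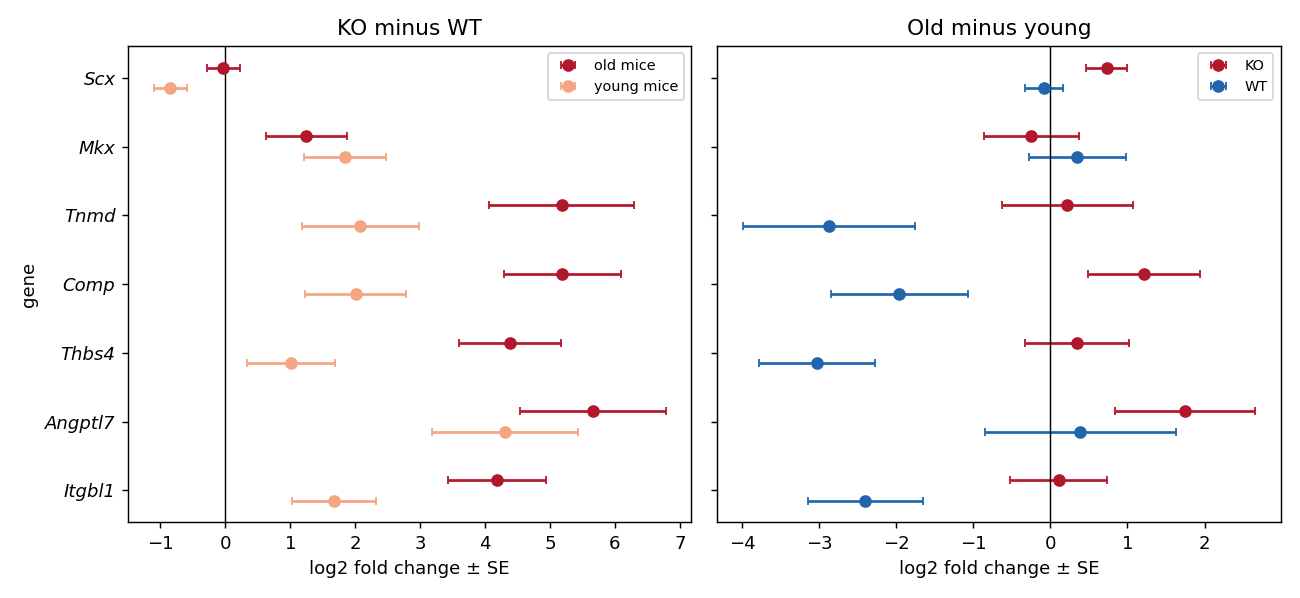
Log2 fold changes of the 7 genes with standard errors, knockout minus wild type (left, old mice above young mice for each gene) and old minus young (right, knockout above wild type). In old mice Tnmd lies at 5.18 and Scx at -0.03, and with age in wild type Thbs4 lies at -3.03 and Angptl7 at 0.39.

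Other genes of the tendon matrix were read from a list of 32 collagens, small proteoglycans and related products, 31 of them tested. In old mice 15 were past the threshold higher in knockout and 0 lower, and 9.52% of all genes were called higher and 7.21% lower. The list's median log2 fold change was 1.28, and that of all tested genes -0.015. The list was written with results of these libraries known, among them those of Kera, Fmod, Dcn, Fibin, Col1a1, Col3a1 and Col22a1, so its counts are a description and no independent evidence of a direction. The log2 fold changes of the 6 with the smallest p-values were 2.67 ± 0.40 for Aspn, asporin, 2.27 ± 0.34 for Ogn, osteoglycin, 3.67 ± 0.64 for Col11a1, a fibril-nucleating collagen, 6.40 ± 1.17 for Kera, keratocan, 1.28 ± 0.26 for Fibin and 4.61 ± 0.86 for Fmod, fibromodulin (SE). Fmod stood at 28.4, 145 and 414 CPM in old knockout and at 5.90, 7.92 and 9.94 CPM in old wild type. Of those that did not pass, the most abundant were Col1a2 and Col3a1, chains of fibrillar collagens, and Tnc, the matrix glycoprotein tenascin C, which averaged 4201, 3288 and 2469 CPM in old knockout and 3029, 2482 and 2104 CPM in old wild type. By DESeq2 1 list gene was lower, and 0 in edgeR's test, where 23 of 31 had an unadjusted p under 0.05 in either direction. With replicate 1 as the only old knockout library, which is then assumed to vary like the other groups, 2 of the list passed, and without old wild-type replicate 2 and old knockout replicate 3, the libraries with most reads outside genes, 0 did. The 15 became 8 when old knockout replicate 3 was left out, and 8 and 7 when replicate 1 or replicate 3 of old wild type was.

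In young mice 2 of the 31 were called higher in knockout and 4 lower, near the 10.9% and 10% of all genes. Ogn (log2 fold change 2.43, adjusted p = 0.00144 in edgeR's test) and Dcn (2.31, 0.0482), decorin, rose in knockout, while Bgn (-1.33, 0.00601), biglycan, Mfap4 (-1.15, 0.00673), a microfibril-associated protein, Col1a1 (-1.12, 0.0256), a chain of collagen I, and Htra3 (-0.75, 0.0266), a serine protease, fell. The other 25 did not pass, and the median was 0.73. The call of Dcn was lost without any one young library other than young knockout replicate 1, up to an adjusted p of 0.164 in edgeR's test, and those of Col1a1 and Htra3 reached 0.114 and 0.136 without 1 library. Ogn stood at 142, 291 and 347 CPM in young knockout and at 40.6, 51.3 and 52.7 CPM in young wild type, and the pattern of Bgn was the reverse, with 690, 454 and 352 CPM in young knockout and 1516, 1155 and 1098 CPM in young wild type. With GC offsets 1 passed higher and 2 lower. A test of whether the knockout effect differed between ages passed for 0 of the 31 genes in edgeR, with 12 under an unadjusted p of 0.05. Of all 13540 genes 2 passed it, so 0 of 31 says little about the list. The share of all genes under that unadjusted p is not given here, so the 12 cannot be set against it.

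With age, 0 of the 31 were higher and 5 lower in wild type, where 0.258% of all genes were called higher and 0.805% lower. They were Fibin (-2.21, adjusted p = 0.00262 in edgeR's test), Col22a1 (-3.58, 0.0271), a collagen of the muscle-tendon junction, Mfap4 (-1.31, 0.0271), Col1a1 (-1.71, 0.0284) and Col3a1 (-0.74, 0.0313). Leaving out 1 library gave 1 to 3 lower calls, and neither Col1a1 nor Col3a1 passed on leaving out any 1 of the 6 wild-type libraries, with adjusted p-values from 0.0608 and 0.0548 upward in edgeR's test. The list's median was -0.78 there. In knockout 0 of the 31 passed in either direction in edgeR's test, with 4 at an unadjusted p under 0.05 and 1 lower by DESeq2, and 0.0148% of all genes were called higher and 0% lower. Col22a1 stood at 4.05, 4.75 and 5.81 CPM in old knockout, 14.0, 46.1 and 26.6 CPM in young knockout, at 0.492, 2.87 and 0.885 CPM in old wild type, and 23.8, 11.4 and 11.7 CPM in young wild type. It lay below every young library of its genotype in each old library, which none of the 7 tendon lineage genes did in knockout.

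**Figure D5:**
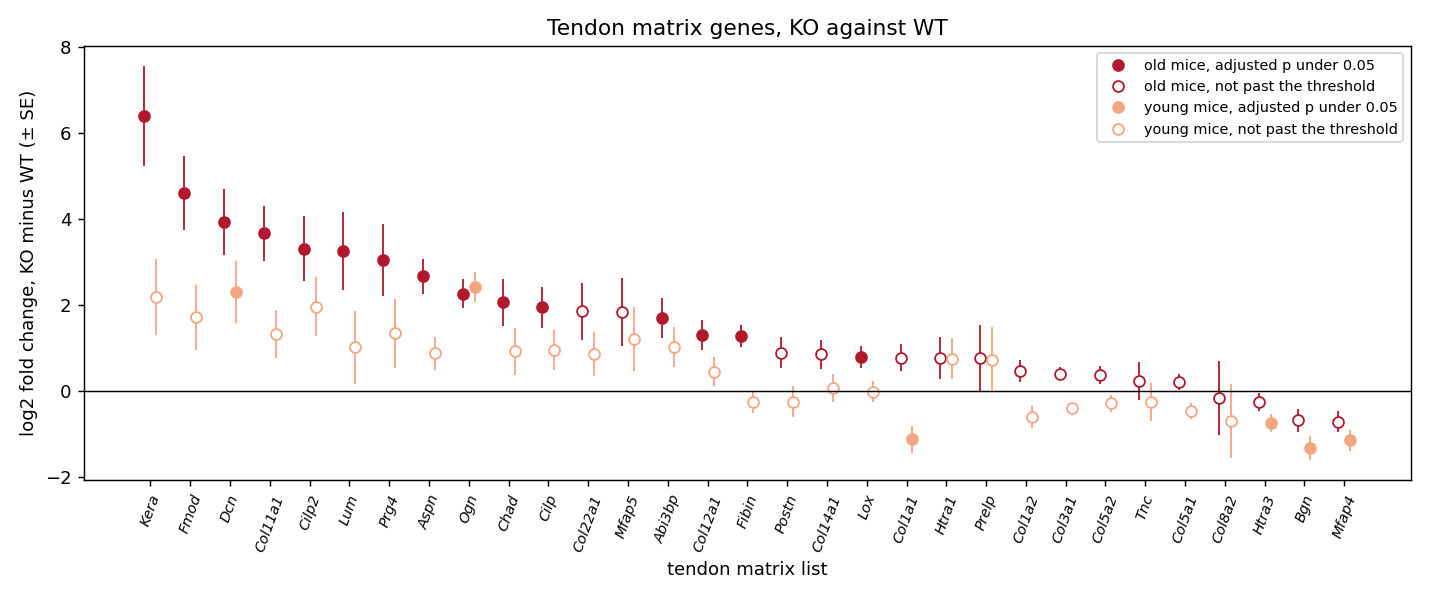
Log2 fold changes of knockout over wild type with standard errors for the 31 tested genes of the tendon matrix list, ordered by the value in old mice, with filled points past an adjusted p of 0.05. In old mice 15 genes pass above 0, and in young mice Ogn and Dcn pass above 0 and Bgn, Mfap4, Col1a1 and Htra3 below it.

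Regulators of tendon development were read from a second list. Of 20 listed factors and growth factor genes 16 were tested, and in young mice 1 rose and 3 fell in knockout, where 10.9% of all genes were called higher and 10% lower. Tgfbr1 (1.13, adjusted p = 0.000723 in edgeR's test), a transforming growth factor beta receptor, rose, and Sox9 (-1.12, 0.000697), a cartilage and tendon progenitor factor, Six2 (-1.82, 0.00549), a homeobox factor, and Egr2 (-0.71, 0.0194), a zinc finger factor that induces tendon collagen genes, fell. The call of Egr2 was lost without 1 library, at up to 0.0839. In old mice, where 9.52% of all genes were called higher and 7.21% lower, Tgfbr1 (1.04, 0.0017) and Tgfbr2 (0.60, 0.0212) were higher in knockout, and Six2 (-1.30, 0.0325) and Tgfb1 (-0.66, 0.0357) were among those lower. The Tgfb1 call was lost without any one old library (adjusted p = 0.0787 to 0.127 in edgeR's test), and those of Six2 and Tgfbr2 reached 0.114 and 0.0801. With GC offsets the log2 fold change of Tgfbr1 was 0.60 in old mice and 0.57 in young mice. Its call in old mice did not hold in every alternative setting. With age in wild type Egr2 (-1.43, 0.00544) and Sox9 (-0.81, 0.0175) fell, with adjusted p-values of up to 0.0544 and 0.104 without 1 library, and in knockout 0 of the 16 passed in edgeR's test, with 0 at an unadjusted p under 0.05. Among relatives of the products, the thrombospondins Thbs1 (0.80, 0.0106), Thbs2 (1.73, 0.0149) and Thbs3 (0.82, 0.0118) were all higher in old knockout than in old wild type, and the other 6 of 9 tested did not pass. In young mice Angptl2 (-0.63, 0.0188) and Angptl4 (-0.53, 0.0326), relatives of Angptl7, fell in knockout and the other 7 did not pass. These counts were not tested against the shares over all genes. Thbs1 stood at 914, 1068 and 1125 CPM in old knockout and at 602, 525 and 652 CPM in old wild type, a narrower gap than that of Comp or Thbs4 in the same libraries.

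The genes nearest in profile to the products were found by the root mean square difference between centred log2(CPM + 0.5) values over the 12 libraries, among 12110 genes. The 8 nearest to the mean of Tnmd, Comp and Thbs4 were Fmod (0.30), Kera (0.39), Col11a1 (0.48), Cilp2 (0.55), Cpxm2 (0.76), Clec11a (0.79), Lum (0.80) and Ptx4 (0.92), in log2 units, where the median gene lay at 1.82. Of the genes studied here Itgbl1 lay at 0.45, Angptl7 at 1.31, Mkx at 1.32 and Scx at 1.97. Kera stood at 2.25, 11.7 and 35.7 CPM in old knockout, 3.98, 13.3 and 9.93 CPM in young knockout, at 0, 0.495 and 0.136 CPM in old wild type, and 1.84, 1.39 and 2.56 CPM in young wild type. Nearest to Scx were Lrwd1 (0.16), Abcd4 (0.16) and Uhrf1 (0.17), and Bop1, at 0.34, ranked 701. Nearest to Mkx were Hlf (0.39), Kcnt2 (0.39) and Chad (0.42), chondroadherin. The libraries share groups and depth, so nearness describes these libraries only.

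Markers of other cell types moved with some of the same libraries. Of 15 cartilage and bone markers the summed level was 85.3 to 281 CPM in old knockout, 88.3 to 190 CPM in young knockout, 114 to 204 CPM in old wild type and 111 to 146 CPM in young wild type, with 0 to 7 of them at 0 in a library. Col2a1, the main collagen of cartilage, stood at 8.86, 165 and 1.74 CPM in old knockout and at 0.430, 2.08 and 0.272 CPM in old wild type, so it was within the old wild-type range in old knockout replicate 3, where Tnmd, Comp, Thbs4, Angptl7 and Itgbl1 peaked. In the young groups it stood at 1.32, 13.6 and 69.5 CPM in young knockout and at 1.16, 0.771 and 27.7 CPM in young wild type. Col2a1 does not stand for the list. Of its 11 tested genes, 7 were higher in knockout and 4 lower in old mice, and 9 and 2 in young mice, by sign alone. Col9a3 averaged 1.54 CPM in old knockout and 16.8 CPM in old wild type, and 2.62 and 23.9 CPM in the young groups. Runx2 averaged 55.6 and 107 CPM in the old groups, and 45.65 and 65.4 CPM in the young groups. The 12 fibro-adipogenic markers summed to 1312, 566 and 1103 CPM in old knockout, 585, 801 and 2239 CPM in young knockout, 614 to 671 CPM in old wild type and 744 to 918 CPM in young wild type. Old knockout replicate 2 had a lower sum than any wild-type library beside Comp at 69.5 CPM. Most of each sum was Gsn alone. It stood at 441 to 1056 CPM in old knockout, 448 to 1768 CPM in young knockout, 484 to 554 CPM in old wild type and 556 to 720 CPM in young wild type. Pdgfra, another of the 12, stood at 2.18 to 9.87 CPM over all libraries, so the sums mainly follow 1 gene. Of the Schwann cell list 9 genes were measured, summing to 308, 148 and 294 CPM in old knockout, 58.7, 92.4 and 806 CPM in young knockout, 140 to 158 CPM in old wild type and 143 to 282 CPM in young wild type. Young knockout replicate 3, with the highest Mkx and the lowest Scx, had the highest sum of both of these lists. The 10 macrophage markers summed to 24.1 to 91.2 CPM in old knockout, 25.8 to 179 CPM in young knockout, 150 to 167 CPM in old wild type and 26.9 to 48.4 CPM in young wild type. The part of such cells in the tendon gene levels was not tested.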

How the data were processed

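Each deposited file held raw read counts per gene symbol for 1 library. The authors used TopHat, HTSeq and DESeq2 with genome build mm9, per the submitters' processing notes, which give no versions. The library kit, per the labels' protocols, keeps strand and depletes ribosomal RNA. The counter's summary lines stayed out of totals and tests.

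Counts were filtered with filterByExpr, scaled with trimmed-mean (TMM) factors and tested in edgeR 4.0.16 by quasi-likelihood (robust fit, 1 mean per group over 12 libraries; R 4.3.3, limma 3.58.1). P-values were adjusted by Benjamini-Hochberg over 13540 genes in each comparison, with 0.05 as the threshold. CPM use the scaled library sizes, and SE is the log2 fold change divided by the square root of F. Intervals cover counting error only. DESeq2 1.42.0 was an alternative. Exon lengths, overlaps and GC content came from GENCODE M21 on GRCm38, another build, matching 92.2% of symbols, so no coordinates are given beyond those of RefSeq's promoters, which are on GRCm38.p6. The code was tested on simulated data.

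The members, lists and tests were chosen with earlier results of these data known. Named genes are the members, up to 6 listed genes per comparison and direction by adjusted p, the most abundant others as values, and the nearest profiles, and 1 gene of the regulator list is not reported here. Replicate numbers did not pair libraries: correlations of same-numbered deviations were -0.28 to 0.25 over 18 pairs.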

Additional observations from a re-analysis of the deposited data

How the results depend on the processing

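The difference between knockout and wild type in the log2 ratio of products to lineage factors was 4.02 in old mice, 3.12 with Mkx alone as the factor and 3.54 to 4.61 on leaving out 1 library. In young mice it was 1.73, and -0.23 with Mkx alone, a reversal, and 1.47 to 2.23 on leaving out 1 library. The old minus young value was -0.37 in knockout, with reversals to 0.34 with Mkx alone and to 0.22 without old knockout replicate 1 (-0.86 to 0.22 over libraries), and -2.67 in wild type (-2.94 to -2.16). Leaving out libraries for this ratio was chosen after seeing the data.

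In young mice 1 of the 7 genes was higher in knockout. That count was 4 with DESeq2 (Angptl7, Comp, Itgbl1, Mkx), 0 with no filter, 3 with only the 2 groups compared, 5 without both old knockout libraries with many Y-linked reads, 3 without the 2 libraries with most reads outside genes, and 0 to 3 without 1 library. The 1 lower gene, Scx, was not called (0) with only those groups, the replicate block, GC offsets or without the 2 libraries with most reads outside genes, and 0 to 1 were called without 1 library. Of the tendon matrix list in young mice, 2 higher became 7 with DESeq2, 1 with library size alone, 1 with no filter, 5 with only those groups, 1 with the replicate block, 7 without both Y-linked libraries, 4 without the 2 libraries with most reads outside genes, 1 with GC offsets and 1 to 4 without 1 library, and 4 lower became 2 without those 2 libraries, 2 with GC offsets and 2 to 4 without 1 library.

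In old mice 15 higher became 9 with no filter, 2 without both Y-linked libraries, 0 without the 2 libraries with most reads outside genes and 7 to 19 without 1 library. The 0 lower became 1 with DESeq2, 1 with library size alone and 0 to 1 without 1 library. With age in knockout, 1 was lower with DESeq2 and 0 to 1 higher without 1 library. With age in wild type, 5 lower became 9 with DESeq2, 3 with no filter, 16 with only the groups compared, 3 with the replicate block, 1 without the 2 libraries with most reads outside genes and 1 to 3 without 1 library. Some of these settings also leave fewer libraries, and the cause of the shifts was not tested. Libraries share only a replicate number, and the replicate block ended the calls of Scx and Dcn in young mice, of Abi3bp, Lox, Lum and Prg4 in old mice, and of Col1a1 and Col3a1 with age in wild type.

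Over all genes, calls ranged from 1065 to 3294 for knockout in young mice (2831 as reported), 3 to 3198 in old mice (2265), 0 to 140 with age in knockout (2) and 2 to 913 with age in wild type (144).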
